A study of Mus musculus with 2 samples.

Results

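Il1rl1, Il18r1, Il18rap, Il1r2, Areg and Gata3, 6 of the 32285 gene identifiers measured, were taken by symbol as a group of genes for sensing alarmins and for tissue repair. They were followed in 2 libraries of single cells sorted as tumour-infiltrating regulatory T cells (Tregs). The cKO library came from mice with the genotype label JMJD1CTregcKO and the WT library from mice labelled JMJD1CWT, all of strain C57BL/6 and of an age of 8-12 weeks. Jmjd1c encodes a jumonji-domain protein of a histone demethylase family. Neither the tumour model nor the number of animals behind a library is labelled, and likewise the Cre driver and the deleted exons. With 1 library per group there is no replicate check and no test, and every 95% interval below covers counting error only.

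Alarmins are cytokines released or activated when tissue is damaged. IL-33 signals through ST2, the product of Il1rl1, paired with the shared co-receptor Il1rap, and IL-18 signals through the chains encoded by Il18r1 and Il18rap, both by way of the adaptor Myd88 to NF-κB. Tregs of tissues and tumours are known for high ST2, for the transcription factor Gata3, for the decoy receptor Il1r2, which binds IL-1 without signalling, and for amphiregulin (Areg), a ligand of the EGF receptor that aids epithelial repair.

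The files hold unique molecular identifier (UMI) counts per gene and cell. Of 4105 barcodes in the cKO library 4026 were kept, with a median of 6953 UMIs and 37493424 UMIs in all, and of 3905 in the WT library 3842 were kept, with a median of 9088 UMIs and 48948291 in all; 2 barcodes occurred in both libraries. Classes were set by UMIs of marker genes and gave 2834 Tregs, 407 CD8 T, 36 NK, 321 myeloid and 434 unclassed cells in the cKO library, and 3240, 213, 1, 103 and 285 in the WT library, of cells sorted as Tregs. Tnfrsf18, Tnfrsf4, Capg, Cd4, Trac and Cd5 are the Treg and CD4 T markers that the class rule did not use. Each was found in 66.5% to 99.1% of cKO Tregs and 77.0% to 99.8% of WT Tregs before thinning. Not all are particular to Tregs. Trac was in 97.8% of cKO and 92.0% of WT CD8 T cells, Tnfrsf18 in 89.7% and 94.8%, and Cd4 in 21.6% and 62.9%. Foxp3, which the rule did use, was found in 34.4% of cKO Tregs and 30.9% of WT Tregs before thinning. In Tregs Jmjd1c itself was at 74.1 CPM (UMIs scaled to a total of 1000000) in the cKO library and 88.6 CPM in the WT library; the 3′ tags need not lie in the deleted part, so this level does not check the label. Xist was at 0.297 CPM in cKO Tregs and 918 CPM in WT Tregs, and Ddx3y, a Y-linked gene, had 2012 UMIs in cKO Tregs and 0 in WT Tregs. The sex of the source animals and the genotype therefore cannot be told apart in any difference between the libraries.

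Both IL-18 receptor chains, the ST2 gene and the decoy receptor are neighbours in the genome. On mouse build mm10, all on the plus strand, Il1r2 lies at chr1:40074079-40125231, Il1rl1 at chr1:40429570-40465415, Il18r1 at chr1:40465552-40500854 and Il18rap at chr1:40515362-40551705, within a run of 6 receptor genes that spans 478 kb. The remaining genes of the run, Il1r1 and Il1rl2, had 18 and 6 UMIs in all cKO Tregs and 10 and 18 UMIs in all WT Tregs. Il1rl1 ends 136 bases before Il18r1 begins, yet the pair did not compare alike between the libraries. Gata3 lies at chr2:9857078-9890034 on the minus strand and Areg at chr5:91139599-91148432 on the plus strand. GENCODE lists 5 transcripts of Il1rl1, of which one ends at position 40446723 and others at 40465415 and 40465396. Counts per gene do not separate them, so the soluble and membrane forms of ST2 are not told apart here.

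Promoters from RefSeq (build GRCm38.p6, 250 bases before to 50 after a start site) were available for all 6 genes, 9 windows in all. They were searched on both strands for a GATA motif (AGATAA, in 11.2% of 32851 promoters), a cyclic AMP response element (TGACGTCA, in 1.79%) and an AP-1 motif (TGANTCA, in 7.81%). The letters AGATAA occurred once in each of the 2 Il1rl1 windows and the cyclic AMP response element once in the Areg window. No match overlapped another. The other 6 windows, those of Il18r1, Il18rap, Il1r2 and Gata3, held no match, and the AP-1 motif was in none of the 9. Other spellings of a GATA motif were not searched. TGATAA, for example, lies in the first Il1rl1 window and the Il18rap window, and as its reverse complement in the Il1r2 window. AGATAA alone therefore does not tell which windows hold GATA sites. The Il1rl1 windows are shown because the factor that binds GATA motifs, Gata3, is itself among the genes followed, and the Areg window because its element is rare among promoters. Capitals mark the letters searched for, which in the second Il1rl1 window read as their reverse complement. The first window is at chr1:40429320-40429619, the second at chr1:40439379-40439678 and that of Areg at chr5:91139349-91139648, all on the plus strand. A match describes letters in the window and not bound sites.
Il1rl1, first window: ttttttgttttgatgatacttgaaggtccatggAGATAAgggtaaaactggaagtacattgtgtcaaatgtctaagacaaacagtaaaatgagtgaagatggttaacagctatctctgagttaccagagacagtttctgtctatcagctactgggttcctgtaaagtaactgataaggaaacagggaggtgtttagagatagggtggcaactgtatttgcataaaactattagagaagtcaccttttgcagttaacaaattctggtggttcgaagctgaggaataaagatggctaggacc
Il1rl1, second window: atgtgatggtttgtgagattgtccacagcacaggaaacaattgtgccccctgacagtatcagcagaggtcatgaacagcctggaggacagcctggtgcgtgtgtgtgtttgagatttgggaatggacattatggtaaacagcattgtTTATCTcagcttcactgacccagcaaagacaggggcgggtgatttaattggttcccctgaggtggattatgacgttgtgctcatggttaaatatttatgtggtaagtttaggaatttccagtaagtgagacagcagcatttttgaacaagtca
Areg: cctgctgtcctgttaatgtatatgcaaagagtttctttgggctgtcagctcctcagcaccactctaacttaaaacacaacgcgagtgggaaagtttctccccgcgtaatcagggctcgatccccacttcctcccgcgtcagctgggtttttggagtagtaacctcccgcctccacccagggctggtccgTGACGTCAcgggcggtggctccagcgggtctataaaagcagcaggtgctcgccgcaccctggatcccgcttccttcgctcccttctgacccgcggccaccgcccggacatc

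Il1rl1 (ENSMUSG00000026069), the IL-33 receptor, had the largest cKO to WT ratio of level in Tregs among the 6 genes. It had 2675 UMIs in the cKO library, 114 CPM (95% Poisson interval 109 to 118), and 1778 UMIs in the WT library, 46.6 CPM (44.5 to 48.9). The cKO level was 2.44 times the WT level (2.29 to 2.59), a log2 ratio of 1.20 with 5 CPM added to each side. After each cell was thinned to 4100 UMIs, 22.6% of 2468 cKO Tregs and 10.6% of 3129 WT Tregs had an Il1rl1 UMI, a difference of 12.0 points (10.1 to 14.0). In myeloid cells without a Cd3 UMI, thinned alike, the share was 2 of 203 in the cKO library and 0 of 40 in the WT library (up to 8.81% by the exact Clopper-Pearson interval), and the Treg share was above this background in each library. Cells with 3 or more UMIs made up 7.41% of cKO Tregs and 2.91% of WT Tregs, whereas the mean in cells with any was 2.26 UMIs in cKO Tregs and 2.20 in WT Tregs. The difference was thus mainly one of how many Tregs had a UMI.

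In Tregs 8678 genes, all 6 among them, averaged 5 CPM or more over the libraries, and 0.991% of these were at least 2-fold higher and 1.2% at least 2-fold lower in cKO Tregs by the log2 ratio. Il1rl1 was the one gene of the 6 past 2-fold higher, and none was past 2-fold lower. Its log2 ratio was above that of 99.4% of the genes, whose median was -0.02.

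Il18r1 (ENSMUSG00000026070), the chain that binds IL-18, was close in the 2 libraries over all Tregs. It was at 129 CPM (124 to 133) in cKO Tregs and 119 CPM (115 to 122) in WT Tregs, a ratio of 1.08 (1.03 to 1.13) and a log2 ratio of 0.11. At 4100 UMIs 33.1% of cKO Tregs and 34.0% of WT Tregs had a UMI, a difference of -0.93 points (-3.42 to 1.56), and no order is read from it. Among Tregs of 6000 to 9000 UMIs, a window added after the values were seen, the log2 ratio was -0.02, and with effector and other Tregs, as defined further on, counted equally, likewise added, it was 0.56. Of myeloid cells without Cd3, 0.493% in the cKO library and 2.5% in the WT library had a UMI.

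Il18rap (ENSMUSG00000026068), the accessory chain that IL-18 signalling needs, was lower in cKO Tregs. It had 23.4 CPM (21.5 to 25.4) in cKO Tregs and 39.9 CPM (37.9 to 42.0) in WT Tregs. The cKO level was 58.5% of the WT level (53.0 to 64.6), a log2 ratio of -0.66, and 2.98% of the genes tested lay below it. A UMI was found in 9.24% of thinned cKO Tregs and 14.5% of thinned WT Tregs, a difference of -5.24 points (-6.91 to -3.54). Both chains were detected together in 4.5% of cKO Tregs and 7.57% of WT Tregs. Myeloid cells without Cd3 had an Il18rap UMI in 3 of 203 cells of the cKO library and 0 of 40 of the WT library.

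Il1r2 (ENSMUSG00000026073), the decoy receptor for IL-1, was lower in cKO Tregs. Its level was 167 CPM (162 to 172) in cKO Tregs and 206 CPM (202 to 211) in WT Tregs, a ratio of 0.808 (0.778 to 0.84) and a log2 ratio of -0.30. At equal depth 22.2% of cKO Tregs and 34.2% of WT Tregs had a UMI, a difference of -12.0 points (-14.3 to -9.6). Cells with any Il1r2 UMI held 2.51 on average in cKO Tregs and 2.06 in WT Tregs, so fewer cKO Tregs were positive and those that were held more. In CD8 T cells with few Treg markers, described below, the thinned share was 3.14% in the cKO library and 3.13% in the WT library. Macrophages and neutrophils also express this gene, and the class rule allows a Treg up to 2 UMIs of Lyz2 and C1qa. Tregs with such a UMI were 16.9% of cKO Tregs and 4.78% of WT Tregs. Within the cKO library Il1r2 was at 244 CPM in those cells and 148 CPM in the other Tregs, and within the WT library at 244 and 204 CPM. Without Tregs holding a UMI of Cd8, Lyz2, C1qa, Ncr1 or Klrb1c the log2 ratio was -0.50. For the remaining genes the ratio of these cells to the other Tregs was between 0.788 and 1.05 in the cKO library and between 0.791 and 0.943 in the WT library.

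Gata3 (ENSMUSG00000015619), the transcription factor of type 2 immunity that also stabilises tissue Tregs, was higher in cKO Tregs. It was at 327 CPM (320 to 334) in cKO Tregs and 218 CPM (214 to 223) in WT Tregs, a ratio of 1.50 (1.45 to 1.54) and a log2 ratio of 0.57. That was above 95.4% of the genes tested and short of 2-fold. A UMI was found in 60.4% of thinned cKO Tregs and 49.98% of thinned WT Tregs, a difference of 10.4 points (7.77 to 13.0). Myeloid cells without Cd3 had one in 3 of 203 cells of the cKO library and 0 of 40 of the WT library.

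Areg (ENSMUSG00000029378), the repair ligand, did not differ in a settled direction. It was at 1297 CPM (1282 to 1311) in cKO Tregs and 1192 CPM (1181 to 1203) in WT Tregs, a ratio of 1.09 (1.07 to 1.10), yet 51.9% of thinned cKO Tregs and 56.7% of thinned WT Tregs had a UMI, a difference of -4.86 points (-7.49 to -2.24). Level and share went opposite ways, and no order is read from either. The share difference stayed negative in all 5 alternative settings, from -3.46 points at 3000 UMIs to -8.18 points without thinning. The log2 ratio of 0.12 became -0.22 when effector and other Tregs, as defined further on, counted equally and -0.16 among Tregs of 6000 to 9000 UMIs, both added after the values were seen. At 4100 UMIs the highest 10% of Tregs held 63.7% of the Areg UMIs in the cKO library and 57.9% in the WT library. Such a share does not compare genes alike, because it nears 100% where about 10% of cells or fewer hold a UMI. That was so for Il18rap in cKO Tregs, found in 9.24%, and for Il1rl1 in WT Tregs, found in 10.6%. The values were 69.0% (cKO) and 97.4% (WT) for Il1rl1, 100% and 75.9% for Il18rap, and 74.9% and 57.2% for Il1r2. They were lower for Il18r1, at 51.0% (cKO) and 49.6% (WT), and for Gata3, at 40.1% and 43.2%. Cells with at least 10 Areg UMIs were 18.4% of cKO Tregs and 18.9% of WT Tregs. For no other gene of the 6 was that share above 0.608%, the value of Gata3 in cKO Tregs. The highest cell had 160 Areg UMIs in the cKO library and 198 in the WT library. Of CD8 T cells with few Treg markers, 5.24% in the cKO library and 9.38% in the WT library had an Areg UMI after thinning.

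**Figure D1:**
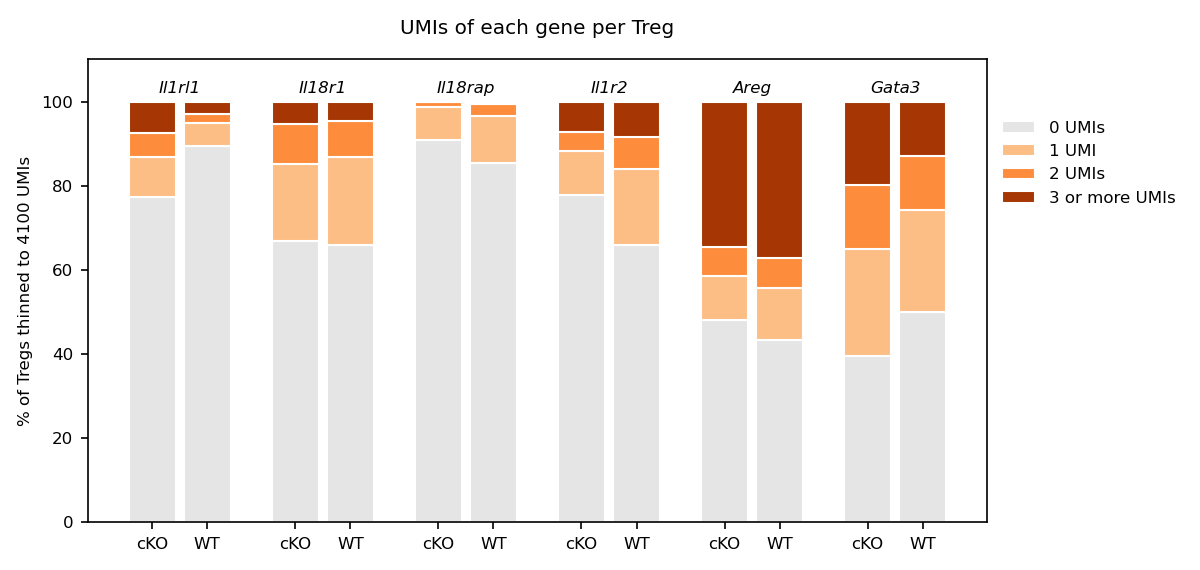
Share of Tregs, in percent and thinned to 4100 UMIs each, with 0, 1, 2 or 3 and more UMIs of each gene, cKO library left of WT library. Tregs without an Il1rl1 UMI made up 77.4% of the cKO library and 89.4% of the WT library, and those without an Il1r2 UMI 77.8% of the cKO library and 65.8% of the WT library.

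Outside Tregs the order of levels depended on the gene. Il1rl1, Areg and Gata3 were higher in Tregs than in CD8 T and myeloid cells of either library. Il1rl1 was next at 45.4 CPM in CD8 T cells and 19.6 CPM in myeloid cells of the cKO library, against 27.1 and 22.4 CPM in the WT library, where these 2 intervals overlap. Areg was at 270 CPM in cKO CD8 T cells and 302 CPM in cKO myeloid cells, and at 314 and 278 CPM in those of the WT library. Gata3 was at 146 CPM in CD8 T and 38.6 CPM in myeloid cells of the cKO library, and at 116 and 53.0 CPM in the WT library.

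Il18r1 and Il18rap did not set cKO Tregs apart from cKO CD8 T cells in the same way. In the cKO library Il18r1 was at 124 CPM in CD8 T cells, with an interval that overlaps that of Tregs, and Il18rap was higher in CD8 T cells at 40.0 CPM than in Tregs. In the WT library CD8 T cells had 88.5 CPM of Il18r1 and 29.7 CPM of Il18rap, both under the Treg levels. Myeloid cells were lowest, with 21.3 CPM of Il18r1 and 8.34 CPM of Il18rap in the cKO library and 26.3 and 12.1 CPM in the WT library. Among the whole Treg, CD8 T and myeloid classes Il1r2 was highest in myeloid cells, with 215 CPM in the cKO library and 259 CPM in the WT library. This order did not hold in the WT library for myeloid cells without a Cd3 UMI. Those had 141 CPM of Il1r2 in the WT library, under the 206 CPM of Tregs, and 199 CPM in the cKO library, above the 167 CPM of Tregs. In unclassed cells Il1r2 was at 251 CPM in the cKO library and 270 CPM in the WT library. It was lower in CD8 T cells, with 56.1 CPM in the cKO library and 109 CPM in the WT library.

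The 36 NK cells of the cKO library had 1.91 CPM of Il1rl1 (1 UMI), 7.63 CPM of Il1r2 (4 UMIs) and 24.8 CPM of Areg (13 UMIs). They had 47.7 CPM of Il18r1, 26.7 CPM of Il18rap (14 UMIs) and 78.2 CPM of Gata3. The intervals of Areg (13.2 to 42.4) and Il18rap (14.6 to 44.8) overlap. NK cells are a classical target of IL-18. The WT library had 1 NK cell, so no comparison was made.

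**Figure D2:**
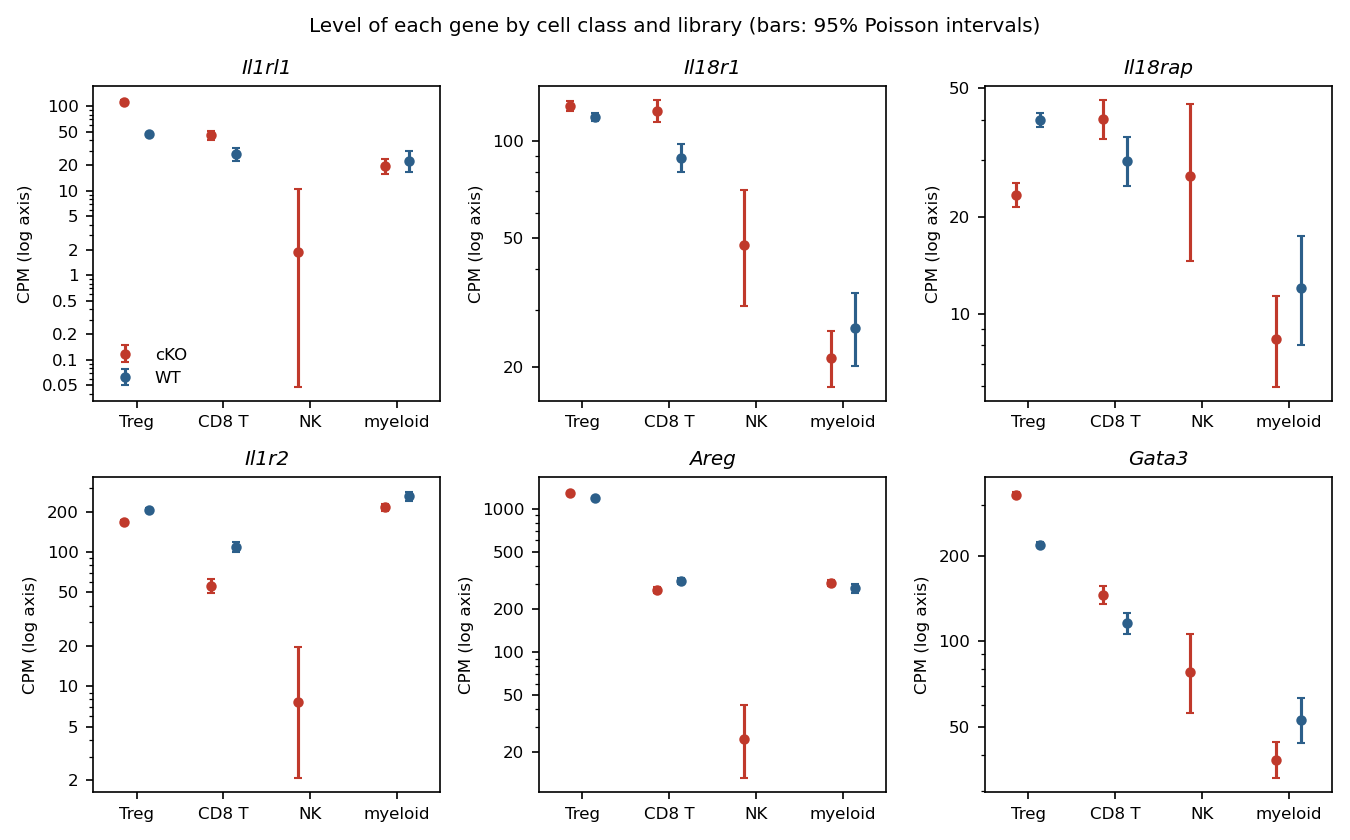
Level in CPM (log axis) of each gene in Tregs, CD8 T cells, NK cells and myeloid cells, cKO left of WT, with exact Poisson 95% intervals; the WT library's 1 NK cell is not drawn. Il1rl1 in Tregs was at 114 CPM in the cKO library and 46.6 CPM in the WT library. Il1r2 was highest in myeloid cells among the classes drawn for each, with myeloid cells that held a Cd3 UMI included.

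In CD8 T and myeloid cells no gene of the 6 was past 2-fold in either direction, where the share of all genes past it was 0.686% higher and 2.55% lower among CD8 T cells and 0.935% higher and 0.981% lower among myeloid cells. These classes were mixed, however. Of 407 cKO and 213 WT CD8 T cells, 198 and 180 also reached the Treg marker sum of 6 UMIs, and of 321 cKO and 103 WT myeloid cells, 103 and 62 had a Cd3e or Cd3g UMI. Both splits were made after the values were seen. Cells with the markers of another class were also deeper. Median UMIs of CD8 T cells that reached the Treg marker sum were 14172.5 in the cKO library and 19913 in the WT library. For those under it, called CD8 T cells with few Treg markers, they were 7634 and 13983. Such cells could still hold some Treg marker UMIs.

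Il1rl1 and Areg were far higher in the CD8 T cells that reached the Treg marker sum than in those with few Treg markers. Il1rl1 was at 70.8 CPM in the cKO and 29.1 CPM in the WT library in the former. In the latter it was at 2.6 and 7.08 CPM, from 5 and 3 UMIs. Areg was at 423 CPM (cKO) and 344 CPM (WT) in the former and at 12.5 CPM (cKO) and 28.3 CPM (WT) in the latter. Over the whole class the cKO to WT ratio of Areg was 0.86 (0.798 to 0.926), and within cells that reached the sum it was 1.23 (1.14 to 1.32).

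Il18r1 did not follow this order in the cKO library. In CD8 T cells with few Treg markers it was at 126 CPM (111 to 143) in the cKO library and 16.5 CPM (6.64 to 34.0) in the WT library. The cells numbered 209 and 33, and the ratio was 7.62 (3.64 to 19.2). Il18rap was at 43.7 CPM (cKO) and 16.5 CPM (WT) in the same cells and Gata3 at 74.4 CPM (cKO) and 28.3 CPM (WT). All 3 were higher in the cKO library there, on 7 UMIs of each IL-18 receptor chain and 12 of Gata3 in the WT library. The CD8 T rule does not require a Cd3 UMI. Over the whole CD8 T class, 98.3% of cKO and 92.0% of WT cells had a Cd3e UMI. The 5 dendritic cell markers summed to 49.5 CPM (cKO) and 284 CPM (WT), with Siglech in 1.97% of cKO and 8.92% of WT cells. The part of such cells in these ratios was not tested.

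Il1r2 was the receptor that myeloid cells carried by themselves. In those without Cd3 it was at 199 CPM (183 to 216) in the cKO library and 141 CPM (115 to 171) in the WT library, a ratio of 1.41 (1.14 to 1.75), opposite to Tregs. The thinned share with an Il1r2 UMI was close, at 33.5% of these cells in the cKO library and 32.5% in the WT library. Gata3 and Il1rl1 were each at 1.7 CPM in the cKO library and 0 UMIs in the WT library (up to 5.06 CPM) in these cells. With a Cd3 UMI, myeloid cells had 97.3 CPM (cKO) and 77.3 CPM (WT) of Gata3 and 48.1 CPM (cKO) and 32.7 CPM (WT) of Il1rl1. Areg was at 78.4 CPM in cKO and 23.3 CPM in WT myeloid cells without Cd3, and at 659 CPM in cKO and 394 CPM in WT myeloid cells with it. Of those without Cd3, however, 6.9% in the cKO library and 10% in the WT library had an Areg UMI after thinning.

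**Figure D3:**
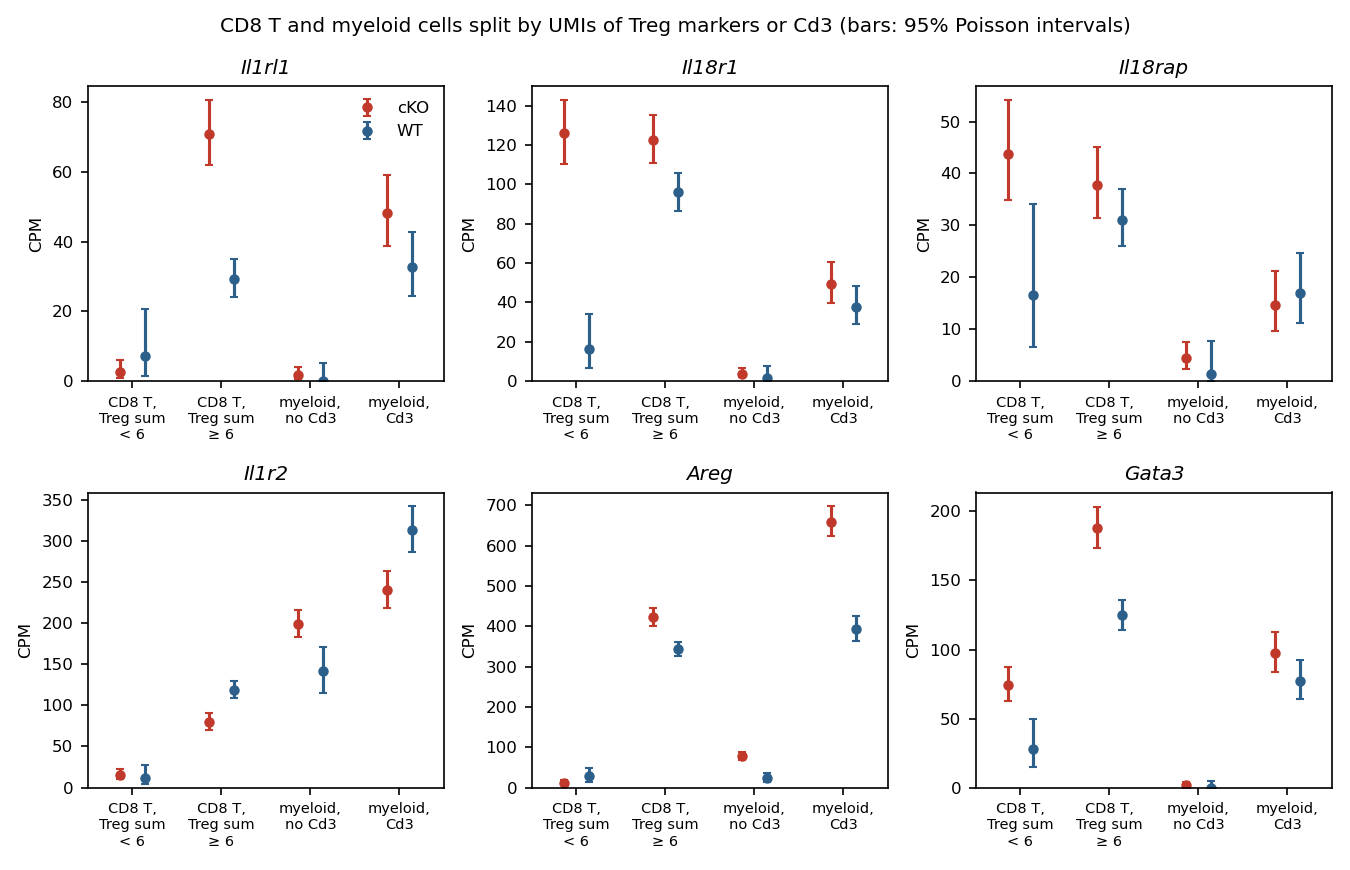
Level in CPM, with exact Poisson 95% intervals, in CD8 T cells split at a Treg marker sum of 6 UMIs and in myeloid cells split by a Cd3 UMI, cKO left of WT. Il1rl1 in CD8 T cells was at 70.8 CPM (cKO) and 29.1 CPM (WT) at a sum of 6 or more and at 2.6 CPM (cKO) and 7.08 CPM (WT) under it.

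Within Tregs, states were set at 4100 UMIs by genes other than the 6. Effector cells had at least 4 UMIs of Gzmb, Lag3, Il10 and Ccr8, cycling cells at least 2 of Mki67, Top2a and Birc5, and interferon cells at least 3 of Ifit1, Ifit3 and Isg15. A cell could be in several. The mix differed, with 75.6% of cKO and 18.6% of WT Tregs counted as effector, 29.4% and 15.2% as interferon and 15.9% and 61.4% in none of the 3. Because each state is defined by its own genes, these shares describe the rule and are no result about the 6 genes.

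Il1rl1 and Gata3 were higher in the cKO library in every one of these states. The ratio of Il1rl1 was lowest at 2.02 (1.71 at the lower bound) among Tregs in none of the 3 states, with 122 CPM in the cKO and 60.1 CPM in the WT library. It was highest among cycling Tregs (2.17 at the lower bound), with 112 CPM in the cKO and 37.1 CPM in the WT library. Gata3 had ratios between 1.32 in Tregs of none of the 3 states and 1.86 in effector Tregs. In both libraries Il1rl1 was also higher in Tregs with a Foxp3 UMI than in those without, at 161 and 115 CPM in the cKO library and at 81.7 and 52.7 CPM in the WT library.

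Il18r1 and Il18rap shared an order between effector and other Tregs. Both were lower in effector Tregs, Il18r1 at 120 CPM in effector and 196 CPM in other cKO Tregs and at 64.2 and 147 CPM in those of the WT library. Il18rap was at 21.8 CPM in effector and 38.6 CPM in other cKO Tregs and at 22.2 and 50.5 CPM in those of the WT library. Between the libraries Il18r1 was 1.88 times as high in cKO as in WT effector Tregs (1.58 at the lower bound) and 1.33 times as high in cKO as in WT Tregs that were not effector (1.20 at the lower bound). Both ratios were above its ratio of 1.05 over all thinned Tregs. Effector Tregs, in which its level was lower, were 75.6% of the cKO and 18.6% of the WT Tregs. Il18rap had a ratio of 0.981 in effector Tregs, with an interval that includes 1, and of 0.763 (0.607 to 0.951) in Tregs that were not effector, and the difference between these ratios was not tested.

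Il1r2 had ratios under 1 in effector, cycling and interferon Tregs, lowest at 0.605 in interferon Tregs, with 101 CPM in the cKO and 167 CPM in the WT library. Among Tregs of none of the 3 states it was at 179 CPM in the cKO and 178 CPM in the WT library, a ratio whose interval, 0.881 to 1.14, includes 1.

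Areg was far higher in effector than in other Tregs of the cKO library, and close in both kinds of the WT library. Effector cKO Tregs had 1744 CPM and other cKO Tregs 652 CPM, a ratio of 2.68 (2.54 to 2.82), whereas effector WT Tregs had 1412 CPM and other WT Tregs 1376 CPM, a ratio of 1.03 (0.988 to 1.07). The difference between these ratios was not tested. Between the libraries Areg was 1.24 times as high in cKO as in WT effector Tregs, and its cKO level was 0.394 of the WT level in Tregs of none of the 3 states, at 561 CPM in 393 cKO cells and 1422 CPM in 1920 WT cells. The share of cells with an Areg UMI was 45.8% of those cKO cells and 57.9% of those WT cells.

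**Figure D4:**
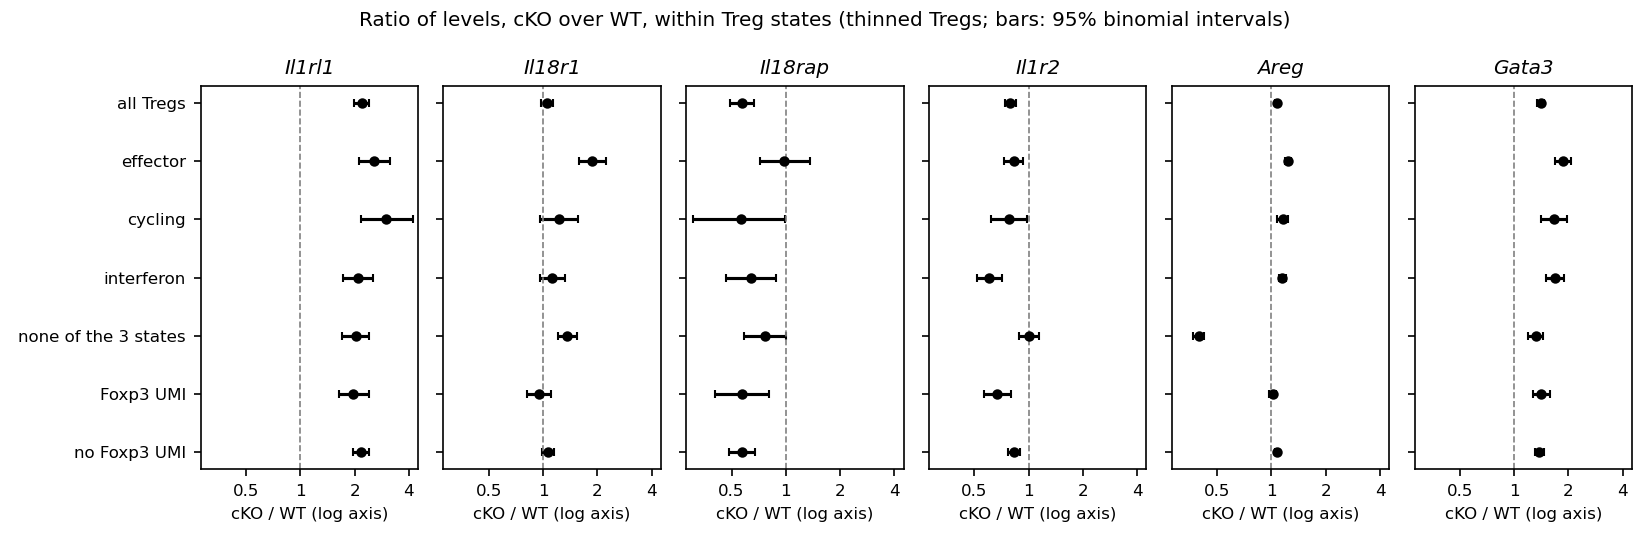
Ratio of each gene's CPM, cKO over WT (log axis), in thinned Tregs of each state, with exact conditional binomial 95% intervals. Il1rl1 and Gata3 lie right of 1 in all rows, and Areg is at 1.24 in effector Tregs and 0.394 in Tregs of none of the 3 states.

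Detection of one gene went along with another for some pairs. Gata3 was found in 77.3% of cKO Tregs with an Il1rl1 UMI and 55.4% of those without, and in 71.7% and 47.4% of WT Tregs. Il18rap was found in 15.9% of cKO Tregs with Il1rl1 and 7.28% without, and in 31.0% and 12.5% of WT Tregs. The IL-18 receptor chains went together too, with Il18rap in 13.6% of Il18r1-positive and 7.09% of Il18r1-negative cKO Tregs, and in 22.3% and 10.5% of WT Tregs. Areg was found in 65.3% of cKO Tregs with Il1rl1 and 47.9% without, 17.4 points apart, and in 62.7% and 56.0% of WT Tregs, 6.63 points apart. Whether these gaps differ between the libraries was not tested.

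Il1r2 went along least with the others. Between Tregs with and without an Il1r2 UMI, the shares with Il18r1, Il18rap or Gata3 differed by -3.92 to 1.73 points over both libraries. The share with Il1rl1 differed by 0.387 points in cKO Tregs and 3.62 points in WT Tregs, and the share with Areg by 6.15 points in cKO Tregs and -0.42 points in WT Tregs. Il1rl1, Areg and Gata3 were detected together in 11.9% of cKO Tregs (10.7 to 13.3) and 4.95% of WT Tregs (4.22 to 5.77). None of the 6 was found in 9.72% of cKO and 9.33% of WT Tregs, and all 6 in 8 cKO and 9 WT cells. The number of the 6 genes found per cell was therefore alike at its ends while its makeup differed.

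**Figure D5:**
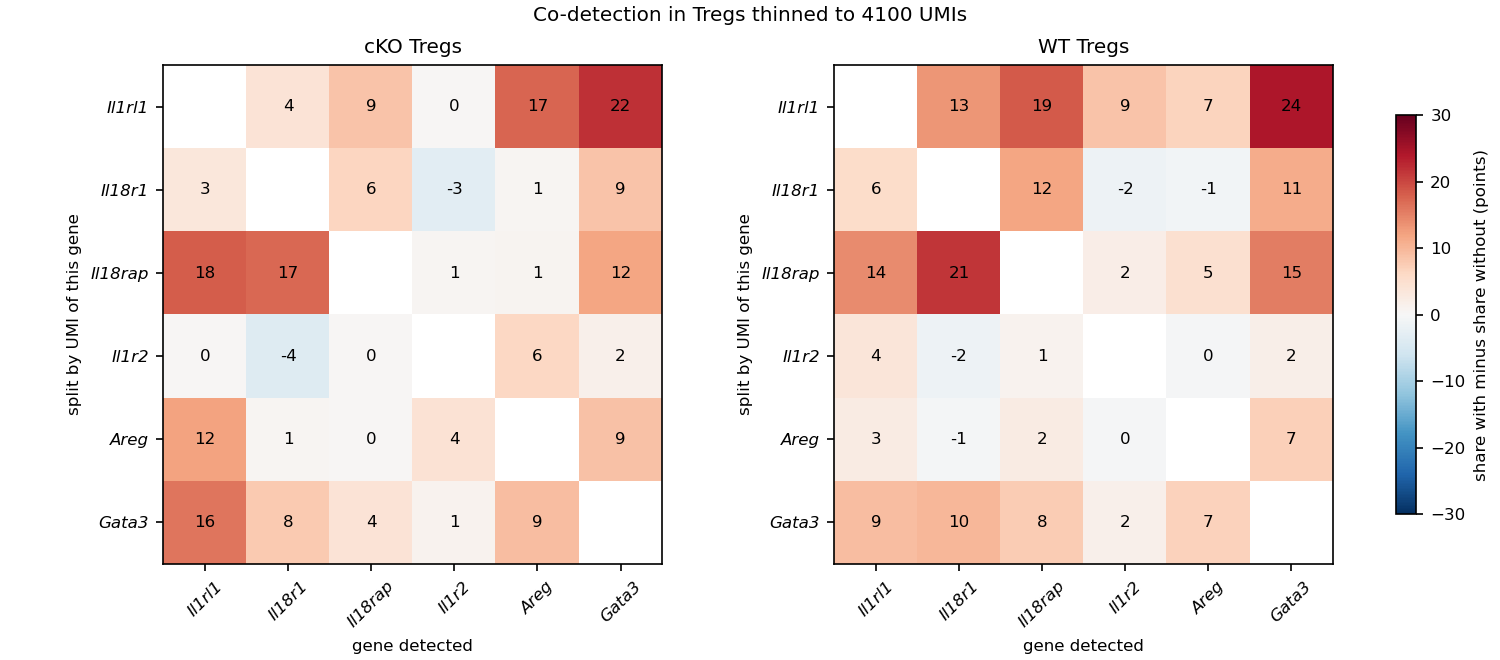
Difference, in percentage points, between the share of thinned Tregs with a UMI of the gene in the column among cells with and among cells without a UMI of the gene in the row, cKO Tregs left and WT Tregs right. Splitting by Il1rl1 moves Gata3 by 21.9 points in cKO and 24.3 points in WT Tregs.

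The genes whose counts went most closely with each of the 6 over thinned Tregs, by the lower Pearson r of the libraries among 5041 genes, had weak correlations over cells that share a library and a depth, and are given as a description. For Il1rl1 they were Dgat2, a triglyceride synthesis enzyme (r = 0.26 in cKO and 0.206 in WT Tregs), Gata3 (0.255 and 0.199) and Nfkbia, the NF-κB inhibitor (0.315 and 0.197). Il18r1 and Il18rap shared Kdm6b, a histone demethylase. Il18r1 also had Emb and Rora, and Il18rap Rel and Gadd45b, with Rel an NF-κB subunit. Gata3 shared Rel and Gadd45b with Il18rap and had H2afz besides. Areg had Ikzf2, Itgav and Id2, and Il1r2 had Ifitm1, Cd74 and Bcl2a1d. The highest r among the genes named for these 5 was 0.247, between Gata3 and Gadd45b in cKO Tregs.

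The ligand genes of these receptors, Il33 and Il18, were scarce in Tregs and found elsewhere. Il33 had 0 UMIs in cKO Tregs (up to 0.157 CPM) and 2 UMIs in WT Tregs, and most of it, 4 UMIs in the cKO and 55 in the WT library, was in unclassed cells. Those UMIs lay in very few cells, 0.23% of the unclassed cells in the cKO library and 0.702% in the WT library. Il18 was at 43.1 CPM in cKO and 17.7 CPM in WT myeloid cells and at 1.44 and 1.65 CPM in Tregs. Of 10 ligand genes 3 averaged 5 CPM or more in Tregs. The alarmin Hmgb1 was abundant, at 691 CPM in cKO and 864 CPM in WT Tregs (log2 ratio -0.32). Il1b was at 275 CPM in cKO and 94.2 CPM in WT Tregs. Il1rn, at 19.0 CPM in cKO and 4.83 CPM in WT Tregs, reached that average only through the cKO library. Both Il1b and Il1rn are myeloid genes, at 5343 and 853 CPM in cKO and 4478 and 301 CPM in WT myeloid cells. The summed level of the 6 myeloid markers, all detected, was 45.7 CPM in cKO and 15.3 CPM in WT Tregs; its part in the Il1b and Il1rn levels was not tested.

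Of 8 related receptors and partners 4 passed in Tregs, with none past 2-fold and a median log2 ratio of 0.13. The IL-7 receptor gene Il7r was lower in cKO Tregs (-0.67), Crlf2, the TSLP receptor chain, was at 0.33, the inhibitory receptor Sigirr at 0.22 and the IL-18 binding protein Il18bp at 0.03. Il1rap, the co-receptor of ST2, stayed under the 5 CPM limit, at 4.38 CPM in cKO and 4.30 CPM in WT Tregs. Its ratio was 1.02 (0.787 to 1.31).

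Signalling genes downstream of these receptors went both ways between the libraries. Of 18, 16 passed, none past 2-fold, with 11 above and 5 below 0 and a median log2 ratio of 0.24, where 46.9% of all genes tested were above 0. Nfkbia had the largest log2 ratio at 0.89, from 1582 CPM in cKO and 854 CPM in WT Tregs. It was followed by Nfkbiz, a nuclear IκB protein, at 0.82, Myd88 at 0.71 and the kinase Irak2 at 0.63. Of the 5 below 0, Tnfaip3 at -0.54 and Traf6 at -0.47 were lowest.

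Few genes of the EGF family and its shedding were measurable. Of 14, 4 passed, with a median of -0.02. None was past 2-fold higher and 1 was past 2-fold lower, beside 0.991% and 1.2% of all genes tested. That gene was Hbegf, another EGF receptor ligand, at 6.84 CPM in cKO and 20.5 CPM in WT Tregs (log2 ratio -1.11). Adam17, the protease that releases amphiregulin, was at -0.09, its relative Adam10 at 0.06 and the ADAM17 partner Rhbdf2 at 0.24. Egfr, the receptor of Areg, had 0 UMIs in the Tregs of both libraries.

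All 14 genes of the tissue Treg list passed, with 8 above and 6 below 0, where 46.9% of all genes tested were above 0. None was past 2-fold, and the median was 0.31. Itgae, the αE integrin, came closest, with a ratio of 2.15 that fell just short of 2-fold once 5 CPM was added to each side, at 71.0 CPM in cKO and 33.0 CPM in WT Tregs. Batf, a factor needed for tissue Tregs, was at 0.94 and Klrg1, a surface marker of these cells, at 0.91. Penk, a precursor of opioid peptides, was lower in cKO Tregs at -0.89. Of 14 genes of type 2 immunity and Gata3 partners 7 passed, 5 above and 2 below 0, none past 2-fold, with a median of 0.09. Among them Tcf7 was at 0.63, Ccr4 at 0.23, Zfpm1, a Gata3 cofactor, at -0.23 and Runx1 at -0.47. The type 2 cytokine genes Il4 and Il5 had 25 and 5 UMIs in cKO Tregs and 25 and 76 in WT Tregs.

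Markers of other cells known for ST2 were followed too. The 6 mast cell and basophil markers had 0 UMIs in the Tregs of both libraries. The 4 markers of group 2 innate lymphoid cells summed to 37.6 CPM in cKO and 74.1 CPM in WT Tregs, of which Calca alone made up 32.9 CPM in cKO and 67.3 CPM in WT Tregs, and their part in the Il1rl1 level was not tested. In unclassed cells they summed to 65.3 CPM in the cKO and 33.1 CPM in the WT library. In the cKO library 3 unclassed cells without a Cd3 UMI had at least 2 UMIs of Il5, Il13 and Hs3st1, and these held 0 Il1rl1 UMIs, against 0 such cells in the WT library. Among unclassed cells Il1rl1 was at 77.3 CPM (cKO) and 151 CPM (WT), but much of it lay in a few cells with at least 10 UMIs of the fibroblast markers Col1a1, Col3a1 and Dcn. The 7 such cells of the cKO library held 98 of 277 Il1rl1 UMIs and the 8 of the WT library 431 of 598, of which 391 were in 1 cell of 96173 UMIs. Without them unclassed cells were at 56.8 CPM in the cKO library and 48.5 CPM in the WT library.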

How the data were processed

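Tumour Tregs were profiled by droplet 3′ sequencing, 1 library per group. The authors deposited unnormalised UMI counts for each barcode; the version of Cell Ranger, 5.0.1, is taken from the file headers, and the build mm10 from the submitters' processing notes. Which annotation release was used, and how intron reads, strand and doublets were handled, is not given in the sources used here. No doublet caller was run here, and leaving out the deepest 5% of Tregs stood in for it.

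Barcodes with at least 500 genes and under 10% mitochondrial UMIs were kept. A Treg had a Cd3e or Cd3g UMI, at least 6 UMIs of Foxp3, Il2ra, Ikzf2 and Ctla4, at most 1 of Cd8a and Cd8b1 and at most 2 of Lyz2 and C1qa. CD8 T cells had at least 3 UMIs of Cd8a and Cd8b1, NK cells at least 2 of Ncr1 and Klrb1c and none of Cd3e, and myeloid cells at least 10 of Lyz2 and C1qa; in the cKO library 6 cells met 2 rules. UMIs were summed per class and library and scaled to CPM, whose intervals are exact Poisson. For ratios the intervals are exact conditional binomial, with no pseudocount. Before a log2 ratio was taken, 5 CPM was added to the cKO and to the WT level, so that low genes appear closer than they were, and shares have Clopper-Pearson and their differences Newcombe intervals at 95%. Shares were taken after thinning to 4100 UMIs, which left out 366 cKO and 111 WT Tregs as too shallow. PCR and library steps are not covered by these intervals. Results on one further Treg state are not reported here. Calculations ran in Python 3.11.15 with numpy 2.4.6, scipy 1.17.1 and pandas 2.3.3 and were tested on simulated counts.

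The genes followed and the gene lists were chosen with earlier results of these data known. Besides the 6 genes, those named are the 4 of each list whose log2 ratios were largest in size, at a mean of 5 CPM or more and, for each of the 6, the 3 most correlated genes at 20 CPM or more. Il33, Il18, Il1rap, Il1r1, Il1rl2, Egfr, Il4, Il5, Il13, Tnfaip3 and Traf6 are named in addition, after their values were seen. Of 32285 gene identifiers 32158 matched GENCODE M21, which is on the same build.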

Additional observations from a re-analysis of the deposited data

Results flagged for a closer look

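The level of Il18rap went opposite ways in 2 cell classes, with a cKO to WT ratio of 0.585 in Tregs and 1.35 in CD8 T cells. CD8 T cells had 40.0 CPM in the cKO library and 29.7 CPM in the WT library. In those with Treg markers, however, the ratio was 1.22 (0.943 to 1.57), an interval that includes 1. In those with few Treg markers it was 2.65 (1.23 to 6.78), on 7 UMIs in 33 WT cells. After thinning, the share of CD8 T cells with a UMI differed by 1.33 points (-4.42 to 6.43), and no order is read from it. Areg also went opposite ways, with a ratio of 1.09 in Tregs and 0.86 in CD8 T cells, although its ratio was 1.23 in the CD8 T cells that carried Treg markers. Gata3 had a ratio of 1.50 in Tregs and 0.727 in myeloid cells, although its ratio was 1.26 (0.995 to 1.60) in the myeloid cells with a Cd3 UMI, and those without held 5 cKO UMIs and 0 WT UMIs. Within Tregs, Areg had a ratio of 1.24 in effector Tregs and 0.474 in Tregs that were not effector, at 652 CPM in 601 cKO cells and 1376 CPM in 2548 WT cells. None of these differences was tested, since each group has 1 library.

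In cells outside every class, Il1rl1 was at 843 CPM in the 8 WT cells with fibroblast markers and 228 CPM in the 7 such cKO cells. Most of the WT value, 391 of 431 UMIs, came from 1 cell.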

How the results depend on the processing

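In Tregs, Il1rl1 (log2 ratio 0.95 to 1.32), Gata3 (0.36 to 0.69), Il18rap (-0.91 to -0.23) and Il1r2 (-0.50 to -0.09) kept their direction in all 15 alternatives, whereas Il18r1 and Areg did not. The cause of these shifts was not tested. With a Foxp3 UMI as the Treg rule the log2 ratios were 1.32 for Il1rl1, 0.0056 for Il18r1, -0.38 for Il1r2, 0.33 for Areg and 0.62 for Gata3. Without Tregs holding a UMI of Cd8, Lyz2, C1qa, Ncr1 or Klrb1c they were -0.50 for Il1r2 and 0.16 for Areg. Without cycling Tregs they were 1.04 for Il1rl1, 0.030 for Il18r1, -0.44 for Il1r2, 0.0050 for Areg and 0.43 for Gata3, and without the deepest 5% of Tregs -0.45 for Il1r2. Thinning gave 1.07 for Il1rl1, 0.10 for Areg and 0.48 for Gata3, and means over cells gave 1.08 for Il1rl1, -0.46 for Il1r2, 0.089 for Areg and 0.46 for Gata3. Of 2 alternatives added after the values were seen, equal weight to effector and other Tregs gave 0.56 for Il18r1, -0.23 for Il18rap, -0.20 for Il1r2, -0.22 for Areg and 0.69 for Gata3. Tregs of 6000 to 9000 UMIs gave 0.95 for Il1rl1, -0.020 for Il18r1, -0.91 for Il18rap, -0.090 for Il1r2, -0.16 for Areg and 0.36 for Gata3. Shares thinned to 3000 UMIs put Gata3 at 7.38 points, and without thinning the differences were -6.51 for Il18r1, -14.4 for Il18rap, -21.3 for Il1r2, -8.18 for Areg and 1.74 for Gata3, between cells of unequal depth. At a mean of 20 CPM 64 genes were at least 2-fold lower, against 104, and with 1 CPM added 142 were higher and 172 lower, against 86 and 104. No paired analysis was possible because each group has 1 library.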
